A study of Mus musculus with 67 samples.

Results

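The extra-embryonic ectoderm (ExE) and the epiblast (Epi) of wild-type mouse embryos were compared at E4.75, a stage in embryonic days, with 3 Smart-seq2 libraries each. These 6 libraries, taken by their tissue and stage labels, are part of 67 in 23 groups. All 25006 genes of the deposited table were read, and 15567 of them reached 1 TPM (a transcript's share of the RNA after scaling by its length) in at least 3 libraries and were tested. The embryos came from natural matings and were dissected from the decidua, the pregnant lining of the uterus. Some embryos of the series were grown in a three-dimensional culture, and the labels do not say whether the E4.75 embryos were. Cells were dissociated with trypsin, and a library was made from a pool of about 10 to 100 cells after 17 cycles of amplification. Embryos of a line with an EGFP reporter under the Pdgfra promoter, which is active in the primitive endoderm, helped to isolate lineages in the series. The labels give the genotype only as wild type and call the 3 libraries of a group biological replicates, without stating which embryos went into each. p-values therefore measure the spread between libraries of a group, estimated over all 23 groups, and not that between known embryos.

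The extra-embryonic ectoderm grows out of the polar trophectoderm, the part of the blastocyst wall that covers the inner cell mass, and holds the trophoblast stem cells that build the placenta. The epiblast is the pluripotent tissue below it that forms the embryo itself. The tissues exchange signals. FGF4 from the epiblast keeps trophoblast stem cells dividing through the receptor Fgfr2 and factors such as Cdx2, Eomes and Elf5. The ExE supplies BMP4 and the protease convertases Furin and Pcsk6, which process Nodal made by the epiblast.

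Both tissue labels were first set against their marker genes. Pou5f1, the pluripotency factor that marks the epiblast (chromosome 17, 35506018 to 35510772 on GRCm38, the assembly that mm10 names, as for all positions here), was at 23.1, 23.01 and 26.2 TPM in the ExE libraries and at 165, 145 and 162 TPM in the Epi libraries. It was lower in every ExE library, with a log2 difference of -2.66 ± 0.40 (mean of log2(TPM + 1) in ExE minus that in Epi, ± standard error) and a limma adjusted p of 1.53e-06. Eomes, the T-box factor that marks the ExE (chromosome 9, 118478212 to 118486132), was at 108, 99.98 and 92.3 TPM in ExE and at 62.0, 58.3 and 59.0 TPM in Epi. The groups did not overlap and the adjusted p was 0.0355, but the log2 difference of 0.73 ± 0.24 was under the minimum of 1 required for a call. Eomes was also at 58.0 ± 4.87 TPM in primitive endoderm (PrE) and 77.1 ± 7.10 TPM in trophoblast giant cells (TGC) of the same age (SD, n = 3 each). The mean of Eomes thus differed by less than 1 SD between Epi and PrE, and Pou5f1 was present in all 3 ExE libraries. Pools of cells were sequenced, so that fewer cells of a type and less RNA per cell cannot be told apart.

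ExE was higher than Epi in the placental lactogen genes Prl3d1, Prl3d2 and Prl3d3, in keratins and several trophoblast factors, and in genes of the primitive endoderm. It was lower in core and formative pluripotency genes, in the ligands Fgf4, Fgf15 and Nodal, in the methyltransferase genes Dnmt3a and Dnmt3b and in glycolysis genes. Many of the trophoblast RNAs were also present in Epi, and many of the pluripotency RNAs in ExE. Calls needed both an adjusted p below 0.05 and a log2 difference of 1 or more in size. By this rule 423 genes (2.72% of those tested) were higher and 949 (6.10%) lower in ExE, 1372 (8.81%) in all. The median log2 difference of all genes was -0.06. Genes higher in ExE had a median log2 difference of 1.40 and genes lower in ExE one of -1.67. Of the 423 genes that were higher, Epi still held 10% or more of the ExE level in 353 (83.5%). Of the 949 that were lower, ExE held 10% or more of the Epi level in 612 (64.5%). The 3 libraries of ExE and the 3 of Epi did not overlap for 7817 genes (50.2%), so that a gene without overlap was common and, where it was not called, is given as a description only. Differences past 3 on the log2 scale were seen for 21 genes higher and 77 lower in ExE. Quantile normalization, which forces all libraries to 1 distribution, gave 615 genes higher and 784 lower, so that the split between directions depended on the scaling. A pseudocount of 0.1 TPM in place of 1 left 263 genes higher. All 67 libraries entered the fit, so that a gene's spread is estimated over all 23 groups. With only the 6 libraries compared in the fit, 622 genes were higher and 1331 lower.

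**Figure D1:**
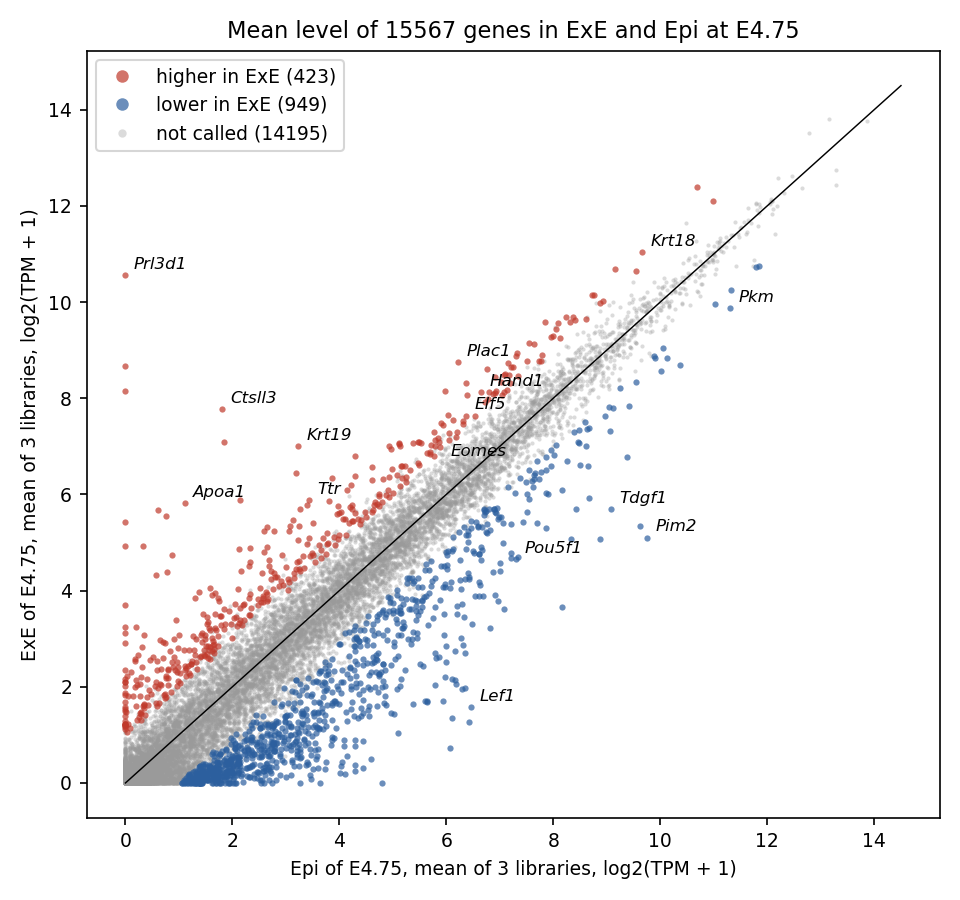
Mean level of each tested gene in ExE (y axis) and Epi (x axis) of E4.75, as log2(TPM + 1), n = 3 libraries each. Genes called higher in ExE (red, 423) lie above the line of equal level and genes called lower in ExE (blue, 949) below it. Prl3d1 stands at 0 on the Epi axis, and the trophoblast genes Elf5, Hand1 and Krt18 lie nearer to the line, at high levels in both tissues.

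The libraries of each group were alike. Pearson correlations of log2(TPM + 1) across genes were 0.993 to 0.994 within ExE, 0.988 to 0.989 within Epi and 0.954 to 0.955 between the groups. Between 10609 and 10645 genes reached 1 TPM in an ExE library, against 11267 to 11452 in an Epi library. Rn45s, the ribosomal RNA precursor, took 0.445% to 0.623% of the TPM in ExE and 0.808% to 1.13% in Epi. The Y-linked gene Eif2s3y was listed at 0 in all ExE libraries and lay between 22.9 and 29.8 TPM in Epi. Xist, the RNA of the inactive X chromosome, lay between 15.49 and 25.3 TPM in ExE and between 2.56 and 4.06 TPM in Epi. The sex-linked RNAs thus differed between the groups, and their part in other calls, those of X-linked genes such as Plac1, Pim2, Amot and Nr0b1 included, was not tested. The TPM scale keeps no depth, so that the reads behind a value and their counting error are unknown.

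Promoter sequences are shown for 3 of the called genes, to set a strongly Epi-biased gene beside genes higher in ExE that hold the same or another motif. They were chosen after the values were seen. Each is the 250 bases before the transcript start in RefSeq (GRCm38.p6), written 5′ to 3′ on the gene's strand, with motif matches in capitals.
Pim2 (chrX:7878056-7878305, + strand): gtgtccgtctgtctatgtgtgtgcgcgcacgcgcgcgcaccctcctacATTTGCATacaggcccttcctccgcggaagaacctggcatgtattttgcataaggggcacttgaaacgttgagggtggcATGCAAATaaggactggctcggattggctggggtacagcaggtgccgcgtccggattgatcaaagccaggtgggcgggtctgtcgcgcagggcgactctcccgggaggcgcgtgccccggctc
Zfp42 (chr8:43307010-43307259, - strand): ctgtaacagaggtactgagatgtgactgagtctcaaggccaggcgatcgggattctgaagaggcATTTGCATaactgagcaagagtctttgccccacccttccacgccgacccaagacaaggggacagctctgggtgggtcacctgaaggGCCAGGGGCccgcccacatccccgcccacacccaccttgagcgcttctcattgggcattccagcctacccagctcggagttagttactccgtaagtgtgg
Krt18 (chr15:102027966-102028215, + strand): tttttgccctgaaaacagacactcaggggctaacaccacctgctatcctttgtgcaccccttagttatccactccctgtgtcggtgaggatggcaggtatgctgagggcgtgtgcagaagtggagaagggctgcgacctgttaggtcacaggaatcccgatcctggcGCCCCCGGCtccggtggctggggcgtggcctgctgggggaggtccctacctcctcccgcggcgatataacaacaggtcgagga
The Pim2 promoter held 2 octamers, ATGCAAAT read on either strand, the motif bound by POU factors such as the product of Pou5f1. They lay 202 to 195 and 123 to 116 bases before the start. Zfp42, which was higher in ExE, also held 1 octamer, 186 to 179 bases before its start. Its promoter and that of Krt18 each held 1 match to GCCNNNGGC, the motif of the TFAP2 factors, which reads the same on both strands.

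Promoters were matched for 334 of the 423 genes higher and 713 of the 949 lower in ExE, and for 11737 of all 15567 tested. The octamer was found in 9 promoters (2.69%) of genes higher and in 12 (1.68%) of genes lower in ExE, against 159 (1.35%) of all. TFAP2 matches were in 16.8% and 18.5% of these promoters and in 20.2% of all. CCGGAAG, the ETS motif, was in 5.39% and 6.03%, against 13.2% of all. TCACACCT, the T-box motif bound by factors such as Eomes, was in 10 promoters (2.99%) of genes higher and in 6 (0.842%) of genes lower, against 106 (0.903%) of all. CTTTGAA, the LEF and TCF motif, was in 2.99% and 2.81%, against 3.32% of all. Both strands were read for each motif, and no matches overlapped in the 3 promoters shown. Letters that match are a description of these windows and not binding sites.

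Transcription factors of trophoblast stem cells were higher in ExE for 4 and lower for 2 of 18 tested, with a median log2 difference of 0.96. Elf5, an ETS factor that keeps trophoblast fate (chromosome 2, 103411688 to 103450989), was at 211, 186 and 198 TPM in ExE and at 84.8, 79.1 and 81.6 TPM in Epi. ExE was higher in every library, by a log2 difference of 1.27 ± 0.24 (adjusted p = 9.89e-05). Satb1, a chromatin organiser of trophoblast stem cells, was at 100.3, 102 and 81.6 TPM in ExE and 34.1, 34.6 and 35.1 TPM in Epi. It rose without overlap (log2 difference 1.42 ± 0.32, adjusted p = 0.00111). Id2, an inhibitor of basic helix-loop-helix factors, was at 1214, 1119 and 1082 TPM in ExE and 475, 408 and 411 TPM in Epi (log2 difference 1.40 ± 0.22, adjusted p = 1.95e-06), again with no overlap. Cdx2, the homeobox factor that starts the trophoblast programme, was low, at 3.02, 1.96 and 2.79 TPM in ExE and 0.948, 0.0476 and 0.168 TPM in Epi. Its log2 difference was 1.42 ± 0.48 (adjusted p = 0.04), and the p was 0.13 without ExE replicate 1, 0.06 without ExE replicate 2, 0.114 without ExE replicate 3, 0.168 without Epi replicate 2 and 0.133 without Epi replicate 3. With a pseudocount of 0.1 TPM the adjusted p was 0.0611 for Elf5, 0.0677 for Satb1 and 0.0677 for Cdx2.

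Several other factors of the list had a higher mean in ExE without passing the test. Tfap2c, an AP-2 factor of trophoblast, was at 149, 144 and 157 TPM in ExE and 55.3, 63.0 and 62.0 TPM in Epi. The adjusted p was 0.105. Nor did the test pass for Gata3, a GATA factor of trophectoderm, at 166, 135 and 142 TPM in ExE and 72.5, 58.5 and 67.4 TPM in Epi (adjusted p = 0.388). Gata2, its relative in giant cells, was at 31.0 ± 3.91 TPM in ExE and 9.62 ± 1.38 TPM in Epi (SD, n = 3 each, adjusted p = 0.0504). With only the 6 libraries compared in the fit, these 3 were called higher, with limma adjusted p-values of 1.08e-06 for Tfap2c, 2.1e-05 for Gata3 and 1.97e-05 for Gata2. Sox2, shared by the epiblast and trophoblast stem cells, fell to 1.73, 2.46 and 1.92 TPM in ExE, against 7.04, 6.88 and 5.70 TPM in Epi (log2 difference -1.31 ± 0.39, adjusted p = 0.0163). Its adjusted p was 0.0671 without ExE replicate 1, 0.055 without ExE replicate 3, 0.0592 without Epi replicate 1 and 0.0562 without Epi replicate 2, and 0.13 with a pseudocount of 0.1 TPM. Zfp281, a zinc finger factor, was at 3.30 ± 0.347 TPM in ExE and 10.4 ± 1.28 TPM in Epi (log2 difference -1.41 ± 0.37, adjusted p = 0.00488).

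The epithelial genes of the trophectoderm followed, with 7 of 22 higher and 0 lower in ExE and a median log2 difference of 0.86. Keratins 8 and 18 form the filaments of this first epithelium. Krt18 (chromosome 15, 102028180 to 102032027) was at 1973, 2122 and 2183 TPM in ExE and at 766, 829 and 839 TPM in Epi. Krt8 was at 1482, 1682 and 1745 TPM in ExE and at 532, 600.1 and 565 TPM in Epi. Both keratins were higher in every ExE library, with log2 differences of 1.37 ± 0.15 (adjusted p = 8.95e-10) and 1.53 ± 0.28 (adjusted p = 3.55e-05). Both were nonetheless among the abundant RNAs of Epi. Krt19, a further keratin, was at 124, 134 and 126 TPM in ExE and only 8.03, 9.70 and 7.36 TPM in Epi (log2 difference 3.79 ± 0.53, adjusted p = 2.32e-07). Tspan8, a tetraspanin, was at 565 ± 39.3 TPM in ExE and 186 ± 11.7 TPM in Epi (log2 difference 1.60 ± 0.51, adjusted p = 0.0266). Its adjusted p was between 0.0628 and 0.0862 on leaving out any 1 of the 6 libraries. Cldn4 and Cldn7, which encode claudins of tight junctions, were at 95.8 ± 6.13 and 288 ± 8.26 TPM in ExE and at 35.2 ± 3.86 and 139.8 ± 16.2 TPM in Epi, and both were called. The difference for Cldn7 was 0.98, just under the minimum, without Epi replicate 1. Lgals3, a galectin of trophoblast, was the last of the 7, at 278 ± 18.96 TPM in ExE and 110.2 ± 2.75 TPM in Epi (log2 difference 1.32 ± 0.30, adjusted p = 0.0012). At a pseudocount of 0.1 TPM 4 of the 22 were called, without Cldn4, Lgals3 and Tspan8. The adhesion genes Cdh1 and Epcam did not pass. Cdh1, which encodes E-cadherin, was at 44.3, 35.4 and 34.9 TPM in ExE and 47.8, 34.4 and 36.4 TPM in Epi, with overlapping groups (log2 difference -0.04 ± 0.28). Epcam was at 536 ± 11.4 TPM in ExE and 568 ± 28.0 TPM in Epi (log2 difference -0.08 ± 0.13).

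Several trophoblast RNAs, chosen here after their values were seen, stood in Epi at a similar share of their ExE level. The Epi mean was 41.2% of the ExE mean for Elf5, 40.1% for Tfap2c and 38.8% for Krt18. The share was 39.1% for the keratin Krt7, 36.0% for Hand1 and 44.9% for Gata3. Other members of the trophoblast lists had other shares. Krt19 and Plac1 stood lower, at 6.55% and 17.0%, as did Ascl2 at 24.7%, and Prl3d1 was listed at 0 in Epi. Eomes stood higher, at 59.6%, as did Car4 at 97.4% and Cdkn1c at 126%. The lists as a whole thus showed no common share. In PrE of the same age the means were 0.169 TPM for Elf5, 0.529 TPM for Tfap2c and 0.209 TPM for Hand1. The summed level of the 18 stem cell factors was 1946 to 2146 TPM in ExE and 808 to 922 TPM in Epi. In PrE the sum was 246 to 266 TPM. In Epi 17 of the 18 reached 1 TPM and 0 were listed at 0. Elf5 was present in Epi of some other ages. It was at 21.3 ± 1.64 TPM at E4.5, 95.1 ± 17.2 TPM at E5.0 and 44.1 ± 3.004 TPM at E5.25 in libraries labelled neither in vivo nor in vitro. In the libraries labelled in vivo it was 30.6 ± 3.08 TPM at E5.0 and 0.336 ± 0.0856 TPM at E5.25 (SD, n = 3 each). The part of trophoblast RNA in the ExE-Epi differences was not tested.

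**Figure D2:**
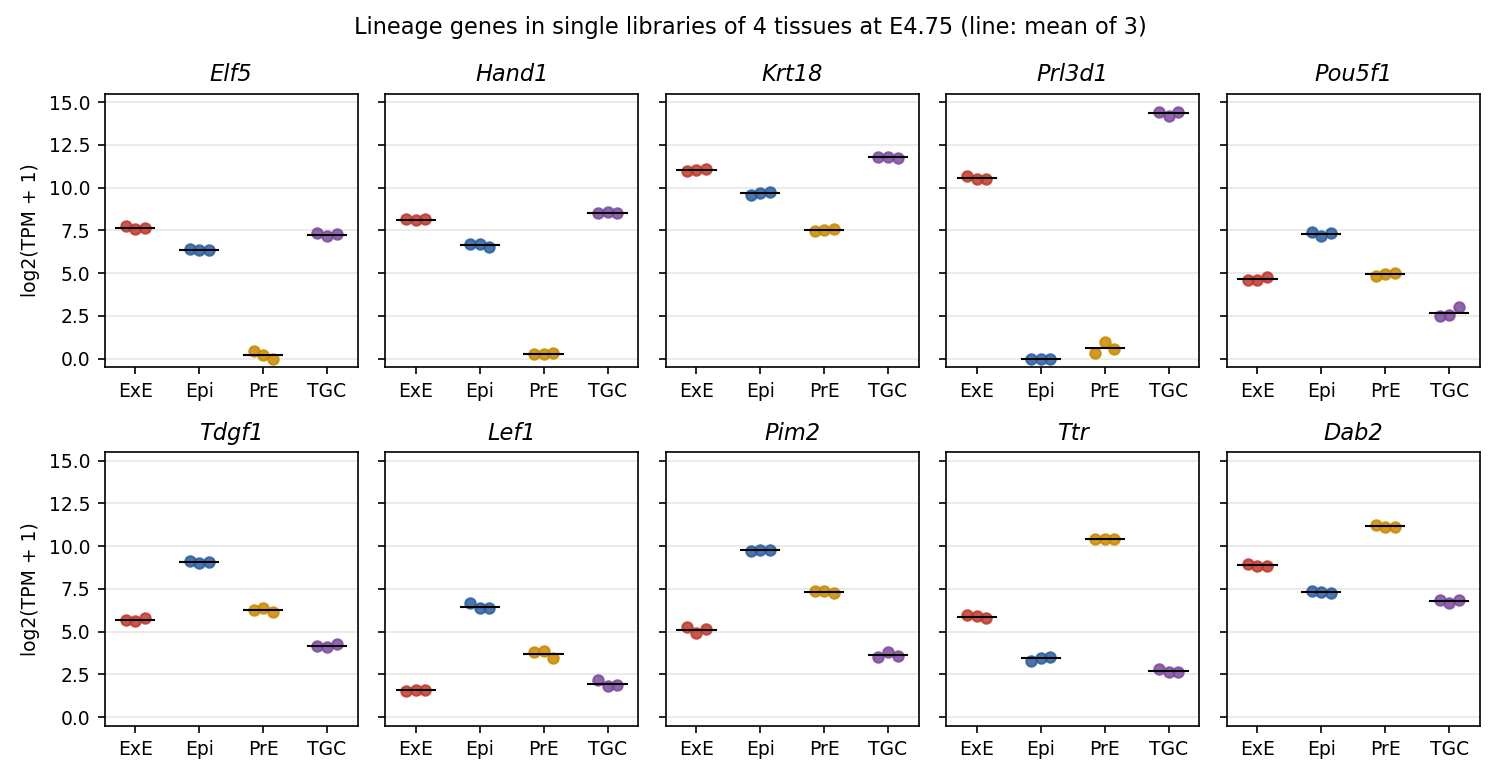
Levels of 10 lineage genes as log2(TPM + 1) in ExE, Epi, PrE and TGC of E4.75, with 1 point per library and a line at the mean of 3. Elf5, Hand1 and Krt18 are present in ExE, Epi and TGC, and Prl3d1 in ExE and TGC. Krt18 is also present in PrE, at a lower level. Ttr and Dab2 are highest in PrE, with ExE above Epi.

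Genes of differentiating trophoblast, the giant cells and the cone that grow into the uterus, came next. Of 20 listed, 17 were tested, and 5 were higher and 0 lower in ExE (median log2 difference 0.45). Hand1, a helix-loop-helix factor of giant cells, was at 282, 269 and 282 TPM in ExE and 105, 102 and 92.3 TPM in Epi (log2 difference 1.47 ± 0.33, adjusted p = 0.000936). Plac1, an X-linked placental gene, was at 442, 427 and 427 TPM in ExE and 76.8, 72.4 and 70.6 TPM in Epi, a log2 difference of 2.54 ± 0.52 (adjusted p = 0.000235). Ascl2, a helix-loop-helix factor of the ectoplacental cone, was at 112, 129 and 127 TPM in ExE and 32.6, 35.7 and 22.8 TPM in Epi. Its log2 difference was 2.003 ± 0.60 (adjusted p = 0.0165), with an adjusted p of 0.056 without ExE replicate 2, 0.0539 without ExE replicate 3 and 0.0825 without Epi replicate 3. Phlda2, an imprinted regulator of placental growth, was at 316 ± 19.3 TPM in ExE and 145 ± 10.05 TPM in Epi (log2 difference 1.12 ± 0.32, adjusted p = 0.0117). The smaller pseudocount of 0.1 TPM gave a p of 0.282 for Phlda2, 0.215 for Hand1 and 0.243 for Ascl2. Tpbpa, the marker of the spongiotrophoblast, and the later lactogen Prl3b1 were listed at 0 in both tissues.

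The genes ranked highest by their difference were largely those of placenta and giant cells, and the ranking chose them. Prl3d1, which encodes placental lactogen 1 (chromosome 13, 27094190 to 27100258), was at 1613, 1461 and 1429 TPM in ExE and was listed at 0 in all 3 Epi libraries (adjusted p = 2.54e-14). Its near-identical neighbours Prl3d2 and Prl3d3 were at 405 and 285 TPM in ExE and listed at 0 in Epi, and reads of these copies may be split with uncertainty. Ctsll3, a cathepsin of the placenta, was at 211, 221 and 222 TPM in ExE and 3.08, 2.42 and 2.02 TPM in Epi (log2 difference 5.98 ± 0.19, adjusted p = 4.39e-31). Nppb, which encodes a natriuretic peptide, was at 134, 145 and 128 TPM in ExE and 2.60, 2.91 and 2.24 TPM in Epi (log2 difference 5.26 ± 0.47, adjusted p = 1.44e-12). The prolactin relatives Prl7a1 and Prl5a1 were at 50.2 and 45.7 TPM in ExE and at 0.520 and 0.692 TPM in Epi. Psg22, a pregnancy-specific glycoprotein, and the cytokine gene Il24 were at 29.4 and 42.2 TPM in ExE and listed at 0 in Epi. These 9 and Apoa1 are the 10 named genes of largest difference in this direction.

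In giant cells of the same age all 9 had a higher mean. Prl3d1 was at 20926 ± 2031 TPM there, so that the ExE mean was 7.17% of the TGC mean. The ExE mean was 14.9% of the TGC mean for Ctsll3, 5.54% for Nppb and 16.2% for Krt19. For genes seen in Epi as well, it was 60.2% for Krt18 and 75.4% for Hand1. Among the 423 genes higher in ExE, the highest mean of the 4 E4.75 tissues was in TGC for 228 (53.9%), in PrE for 102 (24.1%) and in ExE for 93 (22.0%). Epi could not be the highest here, since the genes were chosen for being higher in ExE than in Epi. Genes not called that averaged over 1 TPM in ExE or Epi had other shares. Their highest mean was in TGC for 12.2%, in PrE for 35.3% and in ExE for 16.7%. Epi, which could be the highest there, had 35.8%. The PrE share was thus not raised among the genes higher in ExE. The sum of the 20 differentiating trophoblast genes was 2951 to 3127 TPM in ExE and 679 to 705 TPM in Epi, and 20980.0 to 24720.0 TPM in TGC. Prl3d1 alone, a member of the list, averaged 1501 TPM in ExE and 20926 TPM in TGC, so that these sums largely follow it. The part of giant cell RNA in these calls was not tested.

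**Figure D3:**
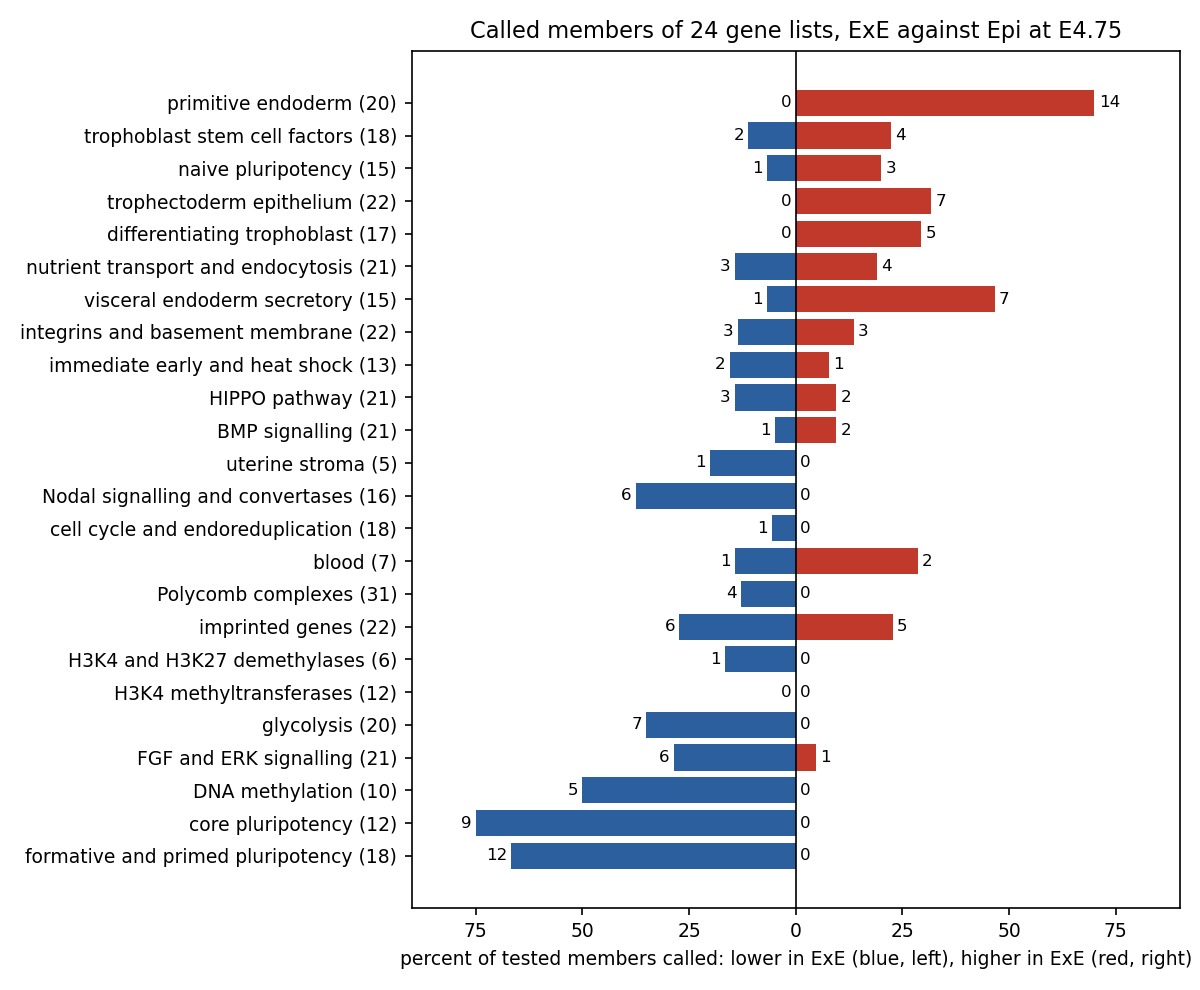
Share of the tested members of each of 24 gene lists (number tested in brackets) called lower (blue, left) or higher (red, right) in ExE than in Epi at E4.75, with counts at the bar ends. Of all tested genes 6.10% were lower and 2.72% higher. Core pluripotency has 9 of 12 lower and primitive endoderm 14 of 20 higher.

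Where limma called 0 members of a list in 1 direction, some could still have an unadjusted p under 0.05 in that direction. This held for 3 Polycomb genes, 2 glycolysis genes, 1 core pluripotency gene and 1 DNA methylation gene that were higher in ExE. It held for 0 formative, Nodal, cell cycle and demethylase genes in that direction, and for 0 trophectoderm, differentiating trophoblast and primitive endoderm genes in the other.

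Most core pluripotency genes were lower in ExE. Of 12 core factors 9 were lower and 0 higher, with a median log2 difference of -1.58. Tdgf1, which encodes the Nodal co-receptor Cripto (chromosome 9, 110939603 to 110946158), fell to 50.6, 47.6 and 53.5 TPM in ExE, against 555, 525 and 545 TPM in Epi. The groups were far apart, with a log2 difference of -3.40 ± 0.21 (adjusted p = 2.09e-18). Gdf3, a TGF-beta ligand of pluripotent cells, was at 10.3, 7.90 and 8.33 TPM in ExE and 91.8, 87.7 and 86.2 TPM in Epi (log2 difference -3.19 ± 0.34, adjusted p = 2.37e-10). Utf1, a chromatin factor of pluripotent cells, was at 361, 424 and 444 TPM in ExE and 1249, 1359 and 1359 TPM in Epi, and so remained an abundant RNA of ExE (log2 difference -1.69 ± 0.16, adjusted p = 1.28e-11). The ExE mean was 15.3% of the Epi mean for Pou5f1, 9.34% for Tdgf1 and 9.998% for Gdf3. For Utf1 it was 31.0%, and for Dppa2, a factor of the same list, 35.8%. Trophectoderm of E4.5 had 2.34 ± 0.764 TPM of Pou5f1 and 5.14 ± 0.420 TPM of Tdgf1, and TGC of E4.75 had 5.51 ± 1.39 and 17.0 ± 0.965 TPM (SD, n = 3 each). The summed level of the 12 genes was 784 to 809 TPM in ExE and 2774 to 2806 TPM in Epi, and its part in other differences was not tested.

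Nanog, the homeobox factor of the early epiblast, did not pass the test. It was at 16.4, 17.4 and 14.7 TPM in ExE and at 6.07, 5.41 and 10.2 TPM in Epi. The log2 difference of 1.10 ± 0.43 had an adjusted p of 0.0935. The p was 0.00226 with only the 6 libraries compared in the fit. Epi of E4.5 had 250.3 ± 63.3 TPM of Nanog, and PrE and TGC of E4.75 had 0.771 and 0.464 TPM.

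Among 15 genes of naive pluripotency, the state of the epiblast before implantation, 3 were higher and 1 lower in ExE (median log2 difference 0.91). Zfp42, which encodes REX1 and is also active in trophoblast, was at 251, 236 and 237 TPM in ExE and 105, 98.4 and 109.7 TPM in Epi. It was higher in every ExE library (log2 difference 1.20 ± 0.24, adjusted p = 0.000198). Tcl1, an activator of AKT kinases, was at 32.6 ± 2.02 TPM in ExE and 14.7 ± 4.29 TPM in Epi (log2 difference 1.13 ± 0.31, adjusted p = 0.00843). Tbx3, a T-box factor, was at 3.21 ± 0.503 TPM in ExE and 1.02 ± 0.459 TPM in Epi (log2 difference 1.07 ± 0.32, adjusted p = 0.0178). Nr0b1, a nuclear receptor of pluripotent cells, fell to 11.2 ± 0.358 TPM in ExE, against 34.2 ± 0.625 TPM in Epi (log2 difference -1.53 ± 0.50, adjusted p = 0.0315). The last 3 calls were lost on leaving out single libraries. The adjusted p for Tcl1 was 0.0551 without Epi replicate 1 and 0.0517 without Epi replicate 2. For Tbx3 it was 0.0881 without ExE replicate 3, 0.0696 without Epi replicate 1 and 0.0963 without Epi replicate 2, and for Nr0b1 between 0.0773 and 0.0892 on leaving out any 1 of the 6 libraries. A pseudocount of 0.1 TPM also ended these 3 calls, with p-values of 0.418 for Tcl1, 0.146 for Tbx3 and 0.39 for Nr0b1. Klf4, a naive factor shared with trophoblast, was at 2.94, 2.32 and 3.29 TPM in ExE and 0.257, 2.01 and 0.983 TPM in Epi and did not pass (adjusted p = 0.0799). Dppa5a, an RNA-binding protein gene, was the most abundant of the list, at 6896 ± 108 TPM in ExE and 9932 ± 192 TPM in Epi (SD, n = 3 each).

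Genes of formative and primed pluripotency, which the epiblast takes up at implantation, were lower in ExE in most cases. Of 18 tested, 12 were lower and 0 higher in ExE (median log2 difference -1.75). Lef1, an effector of WNT signalling (chromosome 3, 131110471 to 131224356), was at 1.91, 2.03 and 2.05 TPM in ExE and at 99.3, 81.1 and 81.1 TPM in Epi. ExE held 2.29% of the Epi level, a log2 difference of -4.87 ± 0.30 (adjusted p = 2.66e-18). Pim2, a serine kinase gene whose promoter is shown above, was at 36.9, 29.2 and 34.0 TPM in ExE and at 826, 879 and 882 TPM in Epi. The groups were separated by a log2 difference of -4.66 ± 0.32 (adjusted p = 1.43e-16). Otx2, the homeobox factor of the exit from the naive state, was at 3.64, 2.64 and 4.04 TPM in ExE and 78.3, 63.0 and 71.8 TPM in Epi (log2 difference -4.03 ± 0.40, adjusted p = 2.15e-11). Pou3f1, a POU factor of the primed epiblast, fell to 3.005 ± 0.154 TPM in ExE, against 22.2 ± 1.17 TPM in Epi (log2 difference -2.53 ± 0.33, adjusted p = 4.29e-08). Otx2 was also at 64.1 ± 5.12 TPM in PrE (SD, n = 3).

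Other genes of large difference lie outside the lists. Calca, which encodes calcitonin and its related peptide, was at 1.10, 0.241 and 0.617 TPM in ExE and 72.8, 65.8 and 59.5 TPM in Epi (log2 difference -5.37 ± 0.43, adjusted p = 1.95e-14). Cthrc1, a secreted collagen-repeat protein gene, was at 1.498, 1.21 and 1.47 TPM in ExE and 90.8, 76.8 and 85.3 TPM in Epi (log2 difference -5.16 ± 0.61, adjusted p = 3.19e-09). Both were far lower in every ExE library. Pla2g1b, a secreted phospholipase gene, was at 11.6 ± 0.988 TPM in ExE and 284 ± 19.8 TPM in Epi. Igfbp2, which binds insulin-like growth factors, was at 39.8 ± 4.47 TPM in ExE and 787 ± 65.4 TPM in Epi. Pipox, an oxidase of pipecolic acid, was at 2.85 ± 1.38 TPM in ExE and 77.5 ± 3.31 TPM in Epi. Tstd1, a sulfurtransferase-like gene, was at 0.138, 3.06 and 0 TPM in ExE and 30.4, 30.3 and 39.1 TPM in Epi, with the ExE libraries uneven. Their log2 differences ran from -4.499 for Pla2g1b to -4.27 for Igfbp2, and all 4 were called.

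FGF ligands of the epiblast were low in ExE. Of 21 tested genes of FGF and ERK signalling, 6 were lower and 1 higher (median log2 difference -0.67). Fgf4, the epiblast signal to trophoblast stem cells, was at 3.42, 5.07 and 5.27 TPM in ExE and at 45.0, 47.1 and 41.9 TPM in Epi. The log2 difference was -3.05 ± 0.31 (adjusted p = 5.64e-11), with no overlap. Fgf15, an FGF19-type ligand, was at 2.16, 1.37 and 3.19 TPM in ExE and 55.9, 65.3 and 60.7 TPM in Epi (log2 difference -4.28 ± 0.28, adjusted p = 2.16e-17). Fgf5, the classical gene of the implanted epiblast, was at 10.4 ± 1.12 TPM in ExE and 72.1 ± 5.75 TPM in Epi (log2 difference -2.68 ± 0.49, adjusted p = 4.19e-05), and at 159 ± 16.9 TPM in PrE. Fgf10 was higher in ExE, at 4.69, 3.99 and 5.56 TPM, against 0.539, 0.924 and 1.01 TPM in Epi (log2 difference 1.66 ± 0.43, adjusted p = 0.00434). Its PrE level was 36.1 ± 2.70 TPM, above both tissues.

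The receptor of the pair did not pass. Fgfr2, the trophoblast receptor of FGF4, was at 38.7, 32.5 and 36.8 TPM in ExE and at 18.6, 16.5 and 15.4 TPM in Epi. The log2 difference of 1.05 ± 0.44 had an adjusted p of 0.119, or 6.47e-05 with only the 6 libraries compared in the fit. Fgfr1, the main receptor of the epiblast, was at 7.43, 6.21 and 6.27 TPM in ExE and 12.5, 14.46 and 11.6 TPM in Epi (log2 difference -0.86 ± 0.32, adjusted p = 0.073). Genes induced by ERK, the kinase downstream of the receptors, differed among themselves. Etv5, an ETS factor, fell to 5.88, 5.247 and 7.58 TPM in ExE, against 69.8, 58.8 and 59.8 TPM in Epi (log2 difference -3.15 ± 0.40, adjusted p = 3.13e-08). Dusp4, an ERK phosphatase, fell to 6.18 ± 0.0465 TPM in ExE, against 31.4 ± 2.02 TPM in Epi (log2 difference -2.17 ± 0.41, adjusted p = 6.43e-05). Its relative Dusp6 was high in both, at 135, 136 and 125 TPM in ExE and 166, 152 and 157 TPM in Epi (log2 difference -0.26 ± 0.21, adjusted p = 0.585). Spry2, an inhibitor of the pathway, overlapped between ExE (89.0 ± 13.0 TPM) and Epi (101 ± 13.0 TPM).

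**Figure D4:**
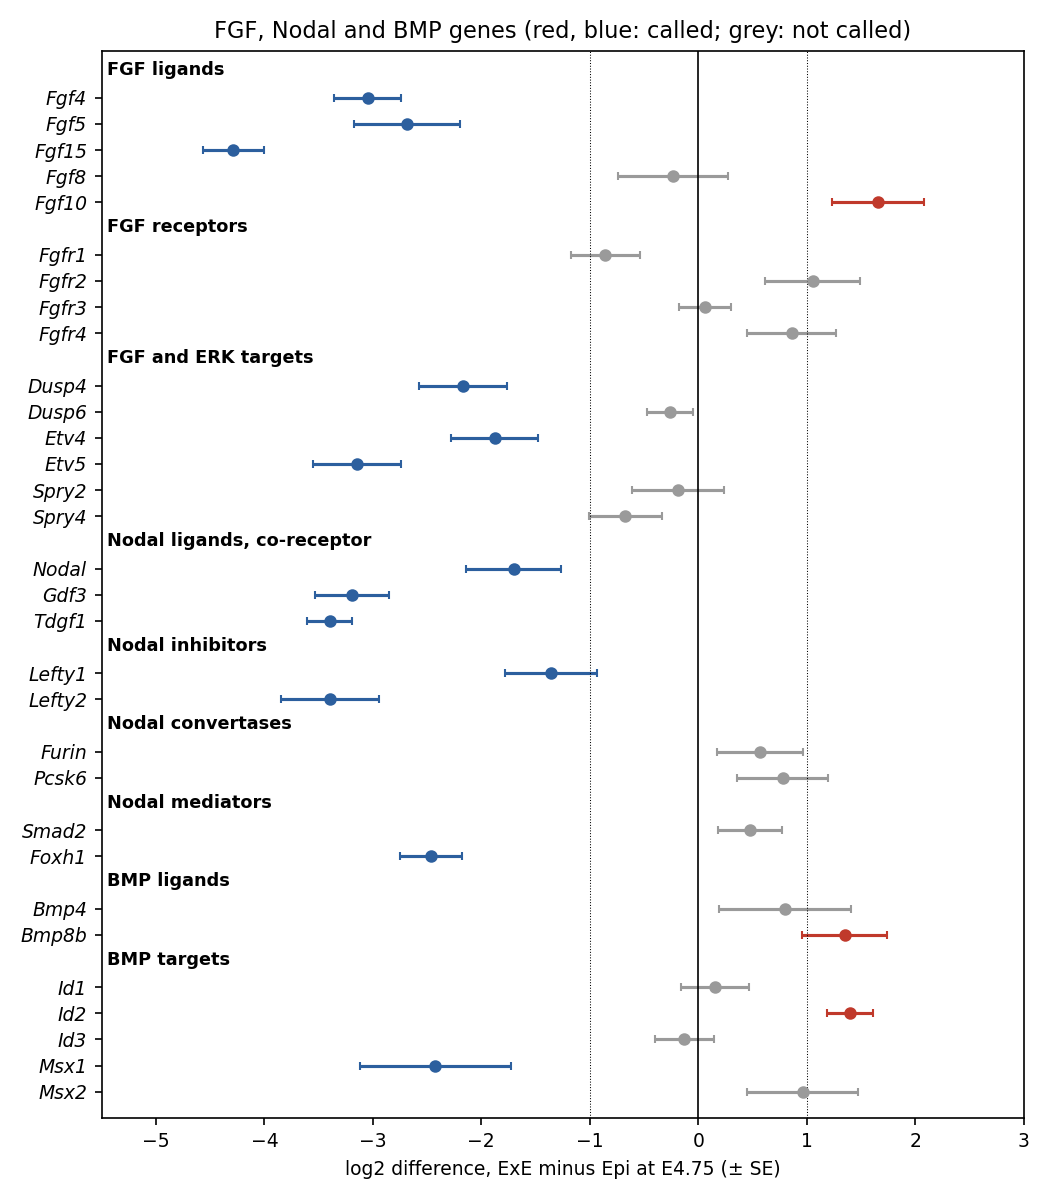
Log2 difference (ExE minus Epi at E4.75, ± standard error) of FGF, Nodal and BMP genes by role, with called genes in red or blue, others in grey and dotted lines at the minimum difference of 1. Fgf4, Fgf5, Fgf15, Nodal, Gdf3 and Tdgf1 lie between -4.28 for Fgf15 and -1.70 for Nodal, while Furin, Pcsk6, Bmp4 and Fgfr2 lie above 0 without passing the test.

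Nodal signalling had 6 of 16 tested genes lower and 0 higher in ExE (median log2 difference -0.01). Nodal itself, a TGF-beta ligand of the epiblast, fell to 3.92, 3.98 and 4.34 TPM in ExE, against 16.2, 14.7 and 15.6 TPM in Epi (log2 difference -1.70 ± 0.44, adjusted p = 0.00452). Lefty2, an inhibitor and target of Nodal, was at 0.526, 0.964 and 1.08 TPM in ExE and 19.4, 15.6 and 20.4 TPM in Epi (log2 difference -3.40 ± 0.45, adjusted p = 8.28e-08). Foxh1, the DNA-binding partner of SMAD proteins, was at 7.39, 11.3 and 12.8 TPM in ExE and 62.5, 63.5 and 57.7 TPM in Epi (log2 difference -2.47 ± 0.29, adjusted p = 2.25e-09). All 3 were lower in every ExE library. The convertase Furin was near the floor of the scale, at 1.91, 1.54 and 1.27 TPM in ExE and 0.877, 0.680 and 0.620 TPM in Epi. Pcsk6, the other convertase, was at 10.9, 12.1 and 10.8 TPM in ExE and 6.34, 7.27 and 5.06 TPM in Epi. Neither passed (adjusted p = 0.477 for Furin and 0.289 for Pcsk6). The receptor genes Acvr2a and Acvr2b overlapped between the groups, with log2 differences of 0.05 and 0.06. The adjusted p of Nodal was 0.217 with a pseudocount of 0.1 TPM. In PrE of the same age Nodal was at 44.7 ± 3.87 TPM (SD, n = 3), above both tissues.

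BMP signalling showed 2 of 21 tested genes higher and 1 lower, with a median log2 difference of 0.05. Bmp4, the ExE ligand that patterns the epiblast, was at 65.9, 65.3 and 72.4 TPM in ExE and at 38.6, 36.9 and 40.4 TPM in Epi. The log2 difference was 0.80 ± 0.61 with an adjusted p of 0.544. Bmp8b, a relative also made in the ExE, was at 14.7, 11.4 and 13.4 TPM in ExE and 3.80, 5.29 and 4.64 TPM in Epi (log2 difference 1.35 ± 0.39, adjusted p = 0.014). Its adjusted p was 0.0612 without ExE replicate 1 and 0.0679 without Epi replicate 1. Of the target genes, Id2 was higher as given above, whereas Id1 overlapped at 26.3, 25.5 and 30.1 TPM in ExE and 25.2, 21.1 and 27.3 TPM in Epi. Msx1, a homeobox target, fell to 6.51, 7.12 and 7.65 TPM in ExE, against 48.3, 47.0 and 33.4 TPM in Epi (log2 difference -2.42 ± 0.69, adjusted p = 0.0119). Its relative Msx2 was at 7.21 ± 1.03 TPM in ExE and 3.23 ± 0.703 TPM in Epi and did not pass (adjusted p = 0.277). With a pseudocount of 0.1 TPM the p was 0.38 for Bmp8b and 0.199 for Msx1.

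The HIPPO pathway, which separates trophectoderm from inner cells through YAP and TEAD proteins, had 2 of 21 genes higher and 3 lower in ExE (median log2 difference 0.05). Amot, the junction protein angiomotin that restrains YAP, was at 8.77, 7.96 and 8.27 TPM in ExE and 1.73, 2.93 and 1.94 TPM in Epi (log2 difference 1.56 ± 0.30, adjusted p = 0.00011). Ccn1, a secreted target of YAP, was at 160.0, 152 and 156 TPM in ExE and 79.8, 71.8 and 64.6 TPM in Epi (log2 difference 1.11 ± 0.24, adjusted p = 0.000726). Both rose without overlap. Ajuba, a LIM protein that inhibits the LATS kinases, was at 9.02 ± 0.752 TPM in ExE and 32.7 ± 0.878 TPM in Epi (log2 difference -1.75 ± 0.39, adjusted p = 0.000835). The factors themselves differed in direction. Tead2 fell to 10.04, 9.53 and 9.51 TPM in ExE, against 30.8, 34.0 and 32.2 TPM in Epi (log2 difference -1.64 ± 0.27, adjusted p = 6e-06). Tead4, the TEAD of the trophectoderm, was at 25.1, 28.0 and 26.8 TPM in ExE and 17.9, 15.3 and 12.6 TPM in Epi and did not pass (log2 difference 0.78 ± 0.42, adjusted p = 0.287). Yap1 was at 3.57 ± 0.0819 TPM in ExE and 4.45 ± 0.206 TPM in Epi. Nf2, which encodes Merlin, was called lower (log2 difference -1.10 ± 0.36, adjusted p = 0.0301), but its p was between 0.0549 and 0.103 on leaving out any 1 of the 6 libraries and 0.0568 with a pseudocount of 0.1 TPM.

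Genes of the primitive endoderm, the third lineage of the blastocyst, were higher in ExE than in Epi for 14 of 20 and lower for 0 (median log2 difference 1.25). Srgn, a proteoglycan gene, was at 297, 276 and 272 TPM in ExE and 66.2, 56.3 and 63.5 TPM in Epi (log2 difference 2.17 ± 0.38, adjusted p = 2.63e-05). Dab2, an endocytosis adaptor, was at 502, 462 and 451 TPM in ExE and 164, 159.9 and 149.99 TPM in Epi (log2 difference 1.57 ± 0.29, adjusted p = 5.97e-05). Both stood well below their PrE levels of 1754 and 2293 TPM. Gata6, the endoderm GATA factor, was at 10.01, 10.5 and 9.64 TPM in ExE and 3.14, 2.07 and 2.15 TPM in Epi (log2 difference 1.69 ± 0.33, adjusted p = 0.000121). Amn, a partner of the receptor cubilin, was at 136 ± 18.2 TPM in ExE and 43.6 ± 3.62 TPM in Epi (log2 difference 1.61 ± 0.44, adjusted p = 0.00794). Sox17, the endoderm SOX factor, was at 16.4, 18.1 and 16.4 TPM in ExE and 7.93, 7.37 and 6.79 TPM in Epi. Its log2 difference was 1.11 ± 0.34 (adjusted p = 0.0197), and the p was 0.0505 without ExE replicate 1, 0.0722 without ExE replicate 2, 0.0512 without ExE replicate 3, 0.0555 without Epi replicate 2 and 0.0723 without Epi replicate 3. Pdgfra, the receptor gene whose promoter drives the reporter, was at 6.43, 7.52 and 5.35 TPM in ExE and 3.01, 2.54 and 0.888 TPM in Epi (log2 difference 1.301 ± 0.33, adjusted p = 0.00331). Its adjusted p was 0.0766 without Epi replicate 3. Only 2 of the 20 were called higher with a pseudocount of 0.1 TPM, where the p was 0.25 for Sox17, 0.0959 for Pdgfra, 0.0828 for Gata6, 0.0621 for Srgn and 0.33 for Amn.

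Secreted products of the visceral endoderm were higher for 7 and lower for 1 of 15 tested (median log2 difference 0.22). Ttr, the carrier transthyretin, was at 61.0, 58.0 and 55.0 TPM in ExE and 8.90, 10.1 and 10.5 TPM in Epi (log2 difference 2.45 ± 0.21, adjusted p = 2.99e-13). Apoa1, the main protein of high-density lipoprotein, was at 53.4, 60.5 and 51.9 TPM in ExE and 0.597, 1.03 and 1.82 TPM in Epi (log2 difference 4.746 ± 0.51, adjusted p = 2.23e-10). Apoa4, a further apolipoprotein, was at 9.73, 7.52 and 8.28 TPM in ExE and 0, 0 and 0.427 TPM in Epi (log2 difference 3.07 ± 0.44, adjusted p = 3.61e-07). Pga5, a pepsinogen gene, was at 109.6 ± 7.19 TPM in ExE and 18.6 ± 2.77 TPM in Epi (log2 difference 2.50 ± 0.42, adjusted p = 1.22e-05). All 4 were higher in every ExE library. Trf, which encodes transferrin, fell to 1.98, 1.96 and 0.956 TPM in ExE, against 22.1, 16.9 and 28.4 TPM in Epi (log2 difference -3.15 ± 0.77, adjusted p = 0.00236). With a pseudocount of 0.1 TPM the p was 0.0707 for Pga5 and 0.0788 for Trf.

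The endoderm RNAs given next stood below their PrE level, the secreted products Ttr, Apoa1 and Apoa4 by the most. The ExE mean was 4.29% of the PrE mean for Ttr, 2.52% for Apoa1 and 3.78% for Apoa4. It was 16.1% for Srgn and 20.6% for Dab2. For Sox17 the share was 24.4%, for Gata6 42.4% and for Pdgfra 37.0%. The 20 primitive endoderm genes summed to 1475 to 1529 TPM in ExE, 583 to 605 TPM in Epi and 7252 to 7700.0 TPM in PrE, and all 20 reached 1 TPM in ExE. The 16 visceral genes summed to 1931 to 2177 TPM in ExE and 1636 to 1819 TPM in Epi, against 17980.0 to 18340.0 TPM in PrE. The part of endoderm RNA in these calls was not tested.

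Enzymes of DNA methylation were lower in ExE for 5 of 10 and higher for 0 (median log2 difference -1.01). Dnmt3a, a de novo methyltransferase, fell to 22.0, 23.7 and 23.1 TPM in ExE, against 133, 122 and 128 TPM in Epi (log2 difference -2.43 ± 0.18, adjusted p = 6.97e-16). Dnmt3b, its partner enzyme, was at 101, 93.9 and 96.7 TPM in ExE and 370.0, 344 and 367 TPM in Epi (log2 difference -1.88 ± 0.22, adjusted p = 2.3e-09). Tet1, a methylcytosine oxidase, fell to 4.7499, 3.92 and 4.26 TPM in ExE, against 18.5, 17.98 and 16.0 TPM in Epi (log2 difference -1.80 ± 0.26, adjusted p = 4.36e-07). All were lower in every ExE library. Tet2, another oxidase, was at 6.01, 4.54 and 5.17 TPM in ExE and 2.28, 2.003 and 2.15 TPM in Epi, higher in ExE but just under the minimum difference (0.98 ± 0.30, adjusted p = 0.0208). The maintenance enzyme Dnmt1 was at 13.0 ± 1.01 TPM in ExE and 25.9 ± 3.19 TPM in Epi and did not pass (adjusted p = 0.216).

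Genes of Polycomb complexes and of the H3K4 methyltransferases, which set the marks of silent and active promoters, were tested next. Of 31 tested Polycomb genes 4 were lower and 0 higher in ExE (median log2 difference -0.14), and of 12 H3K4 methyltransferase genes 0 were called by limma (median -0.41), with 2 lower and 0 higher at an unadjusted p under 0.05. Ezh2, the H3K27 methyltransferase, was at 67.4, 57.0 and 54.1 TPM in ExE and 79.0, 73.0 and 68.9 TPM in Epi (log2 difference -0.31 ± 0.27, adjusted p = 0.629). Kmt2b, an H3K4 methyltransferase of bivalent promoters, was at 1.37, 2.07 and 1.56 TPM in ExE and 3.20, 1.96 and 1.38 TPM in Epi, with overlap. All 4 called genes encode subunits of Polycomb repressive complex 1. Phc1, a Polyhomeotic subunit, fell to 2.41, 4.19 and 4.29 TPM in ExE, against 56.3, 63.0 and 66.4 TPM in Epi (log2 difference -3.79 ± 0.40, adjusted p = 2.05e-10). Its relative Phc2 was at 6.18, 8.40 and 7.22 TPM in ExE and 2.30, 1.74 and 3.53 TPM in Epi and did not pass (adjusted p = 0.175, or 0.00179 with only the 6 libraries compared in the fit). L3mbtl2 and Pcgf6, subunits of a variant complex, fell to 26.4 ± 1.28 and 51.1 ± 1.14 TPM in ExE, against 90.7 ± 1.77 and 117 ± 12.6 TPM in Epi (adjusted p = 6.36e-05 and 0.000443). Cbx2, a chromobox subunit, was at 1.67 ± 0.0475 TPM in ExE and 7.44 ± 1.19 TPM in Epi (log2 difference -1.65 ± 0.48, adjusted p = 0.0135, but 0.0594 without Epi replicate 3 and 0.145 with a pseudocount of 0.1 TPM). Dpy30, a shared subunit of the H3K4 enzymes, differed by -0.84 ± 0.08 (adjusted p = 3.98e-12), under the minimum. Of 6 demethylase genes 1 was lower, namely Kdm5b, an H3K4 demethylase, at 16.8, 15.6 and 15.498 TPM in ExE and 65.7, 64.2 and 55.9 TPM in Epi (log2 difference -1.89 ± 0.24, adjusted p = 3.72e-08).

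Glycolysis genes were lower in ExE for 7 of 20 and higher for 0 (median log2 difference -0.63). Pkm, the last enzyme of the pathway, was at 895, 934 and 974 TPM in ExE and 2457, 2581 and 2531 TPM in Epi (log2 difference -1.43 ± 0.13, adjusted p = 8.51e-13). Aldoa, an aldolase, was at 1208 ± 73.4 TPM in ExE and 2559 ± 138 TPM in Epi (log2 difference -1.08 ± 0.09, adjusted p = 1.32e-14). The largest differences of the list were in genes around pyruvate and lactate. Ldhb, a lactate dehydrogenase, was at 2.24, 3.74 and 2.88 TPM in ExE and 70.2, 77.5 and 92.8 TPM in Epi (log2 difference -4.37 ± 0.69, adjusted p = 3.18e-06). Slc16a3, the lactate exporter MCT4, was at 14.4, 11.9 and 15.3 TPM in ExE and 102, 96.5 and 91.2 TPM in Epi (log2 difference -2.72 ± 0.49, adjusted p = 3.25e-05). Pdk1, a kinase that limits the oxidation of pyruvate in the mitochondria, was at 2.08 ± 0.160 TPM in ExE and 13.5 ± 2.12 TPM in Epi (log2 difference -2.23 ± 0.54, adjusted p = 0.00222). The glucose transporter Slc2a1 was higher in every ExE library, at 169.7, 176 and 191 TPM, against 107, 118 and 117 TPM in Epi, a log2 difference of 0.64 ± 0.21 that was under the minimum. Median-ratio scaling put Eno1 and Ldha under the minimum difference, which left 5 of the 20 called.

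Nutrient transport and endocytosis divided, with 4 of 21 genes higher and 3 lower in ExE (median log2 difference 0.40). Aqp3, a channel for water and glycerol, was at 82.3, 75.4 and 74.6 TPM in ExE and 26.4, 23.2 and 21.0 TPM in Epi (log2 difference 1.68 ± 0.42, adjusted p = 0.00329). The other 3 that were higher, Dab2, Amn and Cubn, also belong to the primitive endoderm list. Slc7a3, a carrier of cationic amino acids, fell to 51.4, 48.1 and 53.5 TPM in ExE, against 341, 359 and 329 TPM in Epi (log2 difference -2.73 ± 0.44, adjusted p = 5.51e-06). Slc1a5, a glutamine carrier, fell to 14.2, 10.9 and 13.3 TPM in ExE, against 46.6, 48.9 and 42.2 TPM in Epi (log2 difference -1.77 ± 0.43, adjusted p = 0.0022). Folr1, the folate receptor, was high in both tissues, at 276 ± 5.63 TPM in ExE and 241 ± 11.6 TPM in Epi. The p of Aqp3 was 0.306 with a pseudocount of 0.1 TPM, and 1 of the 21 was called higher.

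The ExE-Epi difference at E4.75 was then tested against the same difference at E5.5, as an interaction with no library in both. At E5.5 the cultured embryos gave 3 libraries each of ExE and Epi and the in vivo embryos 2 each. The labels do not say whether the E4.75 embryos were cultured, so that age and culture cannot be told apart. Against cultured E5.5, 478 genes (3.07%) had a higher and 1084 (6.96%) a lower ExE-Epi difference at E4.75, 1562 (10.0%) in all. Against in vivo E5.5 the counts were 650 (4.18%), 1192 (7.66%) and 1842 (11.8%). The median over all genes was -0.165 for the cultured and -0.123 for the in vivo comparison, so values are to be read relative to these shifts. Median-ratio scaling brought the medians to -0.024 and 0.00417. It gave 473 genes higher and 721 lower in the cultured and 814 and 871 in the in vivo comparison. Quantile normalization gave 590 and 727 in the cultured and 906 and 937 in the in vivo comparison, so that the split between directions moved with the scaling here too.

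Elf5, Eomes, Bmp4, Fgfr2, Krt18, Tfap2c and Hand1 differed less between the tissues at E4.75 than at either E5.5. This did not hold for all trophoblast genes, and Cdx2 passed neither interaction, as given with its p-values beside the epiblast genes. Krt19 was at 128 TPM in ExE and 8.36 TPM in Epi at E4.75, and at 24.3 ± 8.90 TPM in ExE and 7.90 ± 10.7 TPM in Epi of cultured E5.5, and its interaction is not given here. Elf5 averaged 198 TPM in ExE and 81.8 TPM in Epi at E4.75, and 147 ± 10.9 TPM in ExE and 3.46 ± 2.07 TPM in Epi of cultured E5.5 (SD, n = 3 each). The difference between the log2 differences was -3.92 ± 0.34 (adjusted p = 6.44e-13). At in vivo E5.5 Elf5 was at 43.5 TPM in ExE and listed at 0 in Epi (adjusted p = 2.64e-12). Eomes was at 116 TPM in ExE and 7.75 TPM in Epi of cultured E5.5, and at 126 TPM in ExE and 5.61 TPM in Epi of in vivo E5.5. Its interaction was -3.004 ± 0.34 against cultured and -3.53 ± 0.38 against in vivo E5.5 on the log2 scale (adjusted p = 2.28e-09 and 6.07e-10). Bmp4 was at 319 TPM in ExE and 19.1 TPM in Epi of cultured E5.5, and at 281 TPM in ExE and 2.96 TPM in Epi of in vivo E5.5. Its interaction was -3.23 ± 0.86 (adjusted p = 0.00768) and -5.93 ± 0.97 (adjusted p = 7.57e-06). With a pseudocount of 0.1 TPM the limma adjusted p of Bmp4 against cultured E5.5 was 0.228. Fgfr2 gave -4.38 ± 0.62 and -4.42 ± 0.69, with Epi of E5.5 at 0.314 TPM in culture and 0.0190 TPM in vivo. Krt18, Tfap2c and Hand1 were likewise called in both comparisons.

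**Figure D5:**
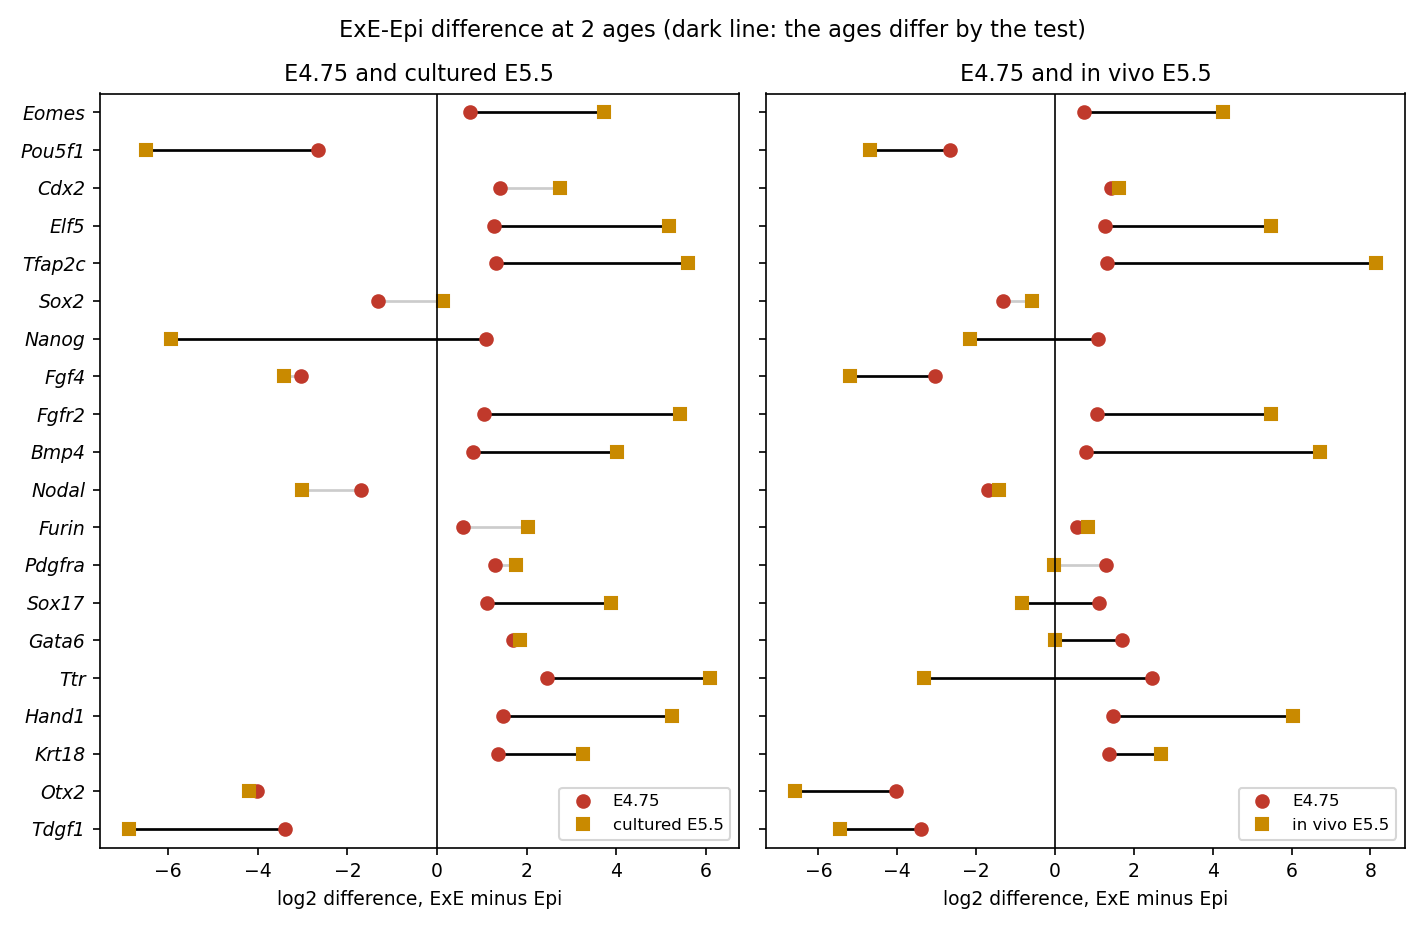
Log2 difference (ExE minus Epi) of 20 genes at E4.75 (red circles) and at E5.5 (gold squares), cultured in the left panel and in vivo in the right. A dark line marks genes whose difference at E4.75 and at E5.5 was not the same by the interaction test. Age and culture cannot be told apart. Eomes, Elf5, Tfap2c, Fgfr2, Bmp4, Hand1 and Krt18 lie nearer to 0 at E4.75 in both panels.

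Epiblast genes were mixed in this test. Tdgf1 was at 50.6 TPM in ExE and 542 TPM in Epi at E4.75, and at 9.01 TPM in ExE and 1136 TPM in Epi of cultured E5.5. Its difference was less negative at E4.75, by 3.48 ± 0.30 against cultured and 2.06 ± 0.33 against in vivo E5.5 (adjusted p = 2.53e-13 and 5.86e-06). Pou5f1 was listed at 0 in ExE of both E5.5 groups, while Epi had 90.3 TPM in culture and 25.2 TPM in vivo (adjusted p = 1.25e-06 and 0.0244). Nanog, which was not called at E4.75, was at 0.0754 TPM in ExE and 65.5 TPM in Epi of cultured E5.5 (interaction 7.05 ± 0.61, adjusted p = 5.51e-13). In vivo it was listed at 0 in ExE of E5.5, with 6.66 TPM in Epi (adjusted p = 0.000486). The limma adjusted p of this in vivo comparison was 0.0677 with only the libraries compared in the fit. Otx2 did not pass against cultured E5.5 (interaction 0.16 ± 0.56, adjusted p = 0.928) and did against in vivo E5.5 (2.56 ± 0.63, adjusted p = 0.00292). Neither interaction passed for Cdx2 (adjusted p = 0.229 and 0.929), Sox2 (0.0817 and 0.525), Nodal (0.19 and 0.888), Furin (0.0851 and 0.886) and Pdgfra (0.628 and 0.0842).

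Among the 4 endoderm genes followed, Ttr and Sox17 passed both interaction tests, with opposite signs in the cultured and in vivo comparisons. Gata6 did not pass against cultured E5.5 (-0.15 ± 0.46, adjusted p = 0.914) and did against in vivo E5.5 (adjusted p = 0.0203). With a pseudocount of 0.1 TPM the limma adjusted p of Gata6 in vivo was 0.319. The in vivo calls of Gata6 and Sox17 were lost without 1 library of in vivo E5.5, with adjusted p-values of up to 0.057 for Gata6 and of 0.181 for Sox17 without Epi replicate 1. Ttr at E5.5 was at 90.3 TPM in ExE and 0.368 TPM in Epi of cultured embryos, and at 0.575 TPM in ExE and 14.6 TPM in Epi of in vivo embryos, where Epi was thus the higher. The interaction was -3.64 ± 0.30 against cultured (adjusted p = 7.84e-14) and 5.78 ± 0.33 against in vivo E5.5 (adjusted p = 3.22e-19). Sox17 was at 14.4 TPM in ExE and listed at 0 in Epi of cultured E5.5, and at 0.0200 TPM in ExE and 1.08 TPM in Epi in vivo. The giant cell gene Ctsll3, at 218 TPM in ExE of E4.75, was listed at 0 in ExE of both E5.5 groups. Prl3d1 was at 45.6 TPM in ExE and 139 TPM in Epi of cultured E5.5. Upp1, uridine phosphorylase, was lower in ExE than in Epi at E4.75 (95.5 and 400.2 TPM) and higher in ExE than in Epi of cultured E5.5 (577 and 25.5 TPM), an interaction of -6.52 ± 0.75 (adjusted p = 2.29e-09).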

How the data were processed

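RNA was measured by Smart-seq2 in pools of about 10 to 100 cells. The values are TPM per gene and library, deposited by the authors in 1 table. The submitters' processing notes name HISAT2 2.2.1, StringTie 2.2.1, Cufflinks and mm10, with no roles, and strand and gene annotation are not given in the sources used here. Reads of near-identical genes cannot be told apart on this scale. TPM sums over genes were 989189 to 989228 in ExE and 987343 to 987554 in Epi libraries of E4.75. TPM keeps no depth, so no counting interval is given.

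The values were tested as log2(TPM + 1) with limma 3.58.1 (R 4.3.3), with a mean for each of the 23 groups of 67 libraries, empirical Bayes moderation with an intensity trend and Benjamini-Hochberg adjustment over the 15567 genes with at least 1 TPM in at least 3 libraries. Folds are on the log2(TPM + 1) scale, which understates changes of low genes. Genes named are 20 fixed genes, members of 24 lists by role with at least the 3 called of largest difference per list and direction, and in each direction the 10 calls that differed most. These needed groups that do not overlap and a mean of at least 10 TPM in the higher group. Each interaction added 5 genes per direction by the same ranking. For the in vivo interaction 1 of these is not reported here. Predicted genes, Rn45s, Xist and Y-linked genes were left out of the ranked choices. The lists, members and tests were chosen with earlier results of these data known. Of 389 listed symbols 385 were in the table and 367 were tested. Chromosome positions come from GENCODE M21 (GRCm38), and promoters from RefSeq. The alternatives were a pseudocount of 0.1 TPM, other filters and scalings, array weights, a fit of only the libraries compared, no minimum difference, a replicate block and leaving out each library. Figures were drawn with matplotlib 3.10.9.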

Additional observations from a re-analysis of the deposited data

Results flagged for a closer look

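The interaction tests asked whether the ExE-Epi difference of E4.75 itself differed from that of E5.5, and all results here were singled out by that test. Against cultured E5.5, 478 genes had a higher and 1084 a lower difference at E4.75. Against in vivo E5.5, 650 were higher and 1192 lower. Age and culture cannot be told apart in these tests, since the E4.75 labels do not state culture.

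In 7 trophoblast and signalling genes the difference was less positive at E4.75, while in the giant cell genes given further on it was more positive. Against cultured E5.5 the log2 interaction was -3.004 for Eomes, -3.92 for Elf5, -4.30 for Tfap2c, -4.38 for Fgfr2, -3.23 for Bmp4, -3.77 for Hand1 and -1.90 for Krt18. Against in vivo E5.5 it was -3.53 for Eomes, -4.42 for Fgfr2, -5.93 for Bmp4 and -1.33 for Krt18. In vivo Epi of E5.5 was listed at 0 for some of these genes, and the adjusted p from limma was 2.64e-12 for Elf5, 1.3e-08 for Tfap2c and 2.1e-09 for Hand1. The Bmp4 call against cultured E5.5 was lost with a pseudocount of 0.1 TPM (limma adjusted p = 0.228). Gata3 gave -6.90 in vivo. Morc4, a MORC ATPase gene, gave -5.40 against cultured and -6.83 against in vivo E5.5. Hs3st3b1, a heparan sulfate sulfotransferase gene, gave an adjusted p of 3.11e-16 in vivo.

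For epiblast genes the interaction was positive for Nanog (7.05) and Tdgf1 (3.48) against cultured E5.5, and for Otx2 (2.56) and Tdgf1 (2.06) in vivo. Where a group was listed at 0 only the limma adjusted p is given. For Pou5f1 it was 1.25e-06 in culture and 0.0244 in vivo. In vivo it was 0.000486 for Nanog and 0.0012 for Fgf4. For Nanog it was 0.0677 with only the libraries compared in the fit.

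The endoderm gene Ttr gave -3.64 against cultured and 5.78 against in vivo E5.5. Sox17 gave an adjusted p of 2.17e-05 against cultured E5.5 and an interaction of 1.93 in vivo. Gata6 gave an adjusted p of 0.0203 in vivo, and Apoa1 an interaction of 7.77. With a pseudocount of 0.1 TPM the limma adjusted p of Gata6 in vivo was 0.319. Several in vivo calls were lost on leaving out a single library of in vivo E5.5, of which each tissue has 2. Each such fit keeps 1 library in a group, so a lost call does not show that the library left out carried it. The Gata6 interaction kept its size in these fits, as did that of Pou5f1 without either ExE library. Those of Nanog, Sox17 and Otx2 shrank. Without Epi replicate 1 of in vivo E5.5 the adjusted p was 0.0714 for Nanog and 0.181 for Sox17. Without Epi replicate 2 of in vivo E5.5 it was 0.102 for Pou5f1 and 0.0561 for Gata6. Without ExE replicate 1 of in vivo E5.5 it was 0.0632 for Pou5f1 and 0.0549 for Gata6. Without ExE replicate 2 of in vivo E5.5 it was 0.0651 for Pou5f1, 0.057 for Gata6 and 0.0935 for Otx2.

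Giant cell genes had adjusted p-values of 3.46e-11 for Prl3d1, 2.28e-14 for Prl3d2, 7.84e-14 for Prl3d3 and 2.39e-24 for Ctsll3 against cultured E5.5. In vivo they were 1.04e-08 for Prl3d3 and 9.23e-22 for Ctsll3. Enpp2, which encodes autotaxin, had an adjusted p of 3.46e-11 in vivo. Gja1, which encodes connexin 43, gave an interaction of 6.28 in vivo. Unlike the giant cell genes, Enpp2 and Gja1 had the lower mean in ExE at E4.75. Enpp2 was at 1.08 TPM in ExE and 8.39 TPM in Epi, and Gja1 at 45.1 TPM in ExE and 81.7 TPM in Epi. In Epi of in vivo E5.5 they were at 255 and 899 TPM. The genes most negative against cultured E5.5 besides Morc4 were Upp1 (-6.52), Tex19.1 (-6.24), Ccdc3 (-5.74) and Ppm1j (-5.44).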

How the results depend on the processing

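Of 140 named genes called in ExE against Epi, 0 changed direction under the 15 alternatives, 82 were called under all 15 and 93 with a pseudocount of 0.1 TPM. That pseudocount left 263 genes higher, against 423, and dropping the minimum difference gave 696. Array weights gave 622 higher and 1340 lower. Leaving out 1 library gave 321 to 355 higher and 764 to 819 lower genes, against 423 and 949. For the interaction with cultured E5.5, the pseudocount left 318 genes higher. Median-ratio scaling left 721 lower, and array weights gave 1746 and a fit of only the libraries compared 1644 lower. Leaving out 1 library gave 395 to 491 higher and 873 to 1035 lower for cultured E5.5, and 536 to 738 higher and 943 to 1360 lower for in vivo E5.5. The cause of these shifts was not tested. The pseudocount left 1 of 18 trophoblast stem cell factors and 2 of 20 primitive endoderm genes higher. Quantile normalization gave 8 of the 18 stem cell factors and 7 of 15 naive genes, array weights 11 of 22 trophectoderm genes higher, and no minimum difference 11 of 20 glycolysis genes lower. Whether replicate numbers in the labels pair the samples is not known. The deviations of same-numbered ExE and Epi libraries correlated at 0.0746, -0.023 and 0.0335. Differently numbered libraries gave -0.0702 to 0.0385, and so few libraries cannot decide it. With the replicate block 409 genes were higher and 924 lower, and all 140 named calls were kept. Depth is unknown, and low genes such as Cdx2 and Furin carry the least certain values.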

Other observations

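Imprinted genes, which are read from 1 parental copy, were higher in ExE for 5 and lower for 6 of 22 (median log2 difference -0.19). H19, a maternally expressed RNA, was at 357, 345 and 331 TPM in ExE and 122, 117 and 117 TPM in Epi (log2 difference 1.53 ± 0.32, limma adjusted p = 0.000446). Its paternally expressed neighbour Igf2 was at 31.3, 32.4 and 35.6 TPM in ExE and 10.1, 9.13 and 10.03 TPM in Epi (log2 difference 1.67 ± 0.34, adjusted p = 0.000269). Both were higher in every ExE library. Mest fell to 31.2, 31.0 and 29.8 TPM in ExE, against 132, 137 and 126 TPM in Epi (log2 difference -2.07 ± 0.50, adjusted p = 0.00215). Peg3, a zinc finger gene, fell to 7.44 ± 1.03 TPM in ExE, against 24.2 ± 3.03 TPM in Epi. Nap1l5 and Zdbf2 were low, at 0.0654 ± 0.0709 and 0.466 ± 0.200 TPM in ExE and at 2.41 ± 0.642 and 3.43 ± 0.218 TPM in Epi, and both were called lower. With a pseudocount of 0.1 TPM the adjusted p was 0.164 for Mest, and under quantile normalization it was 0.0631 for Nap1l5.

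Basement membrane and adhesion genes were higher for 3 and lower for 3 of 22 (median log2 difference 0.14). Lama1, a laminin chain, was at 18.3, 16.9 and 18.9 TPM in ExE and 5.33, 6.19 and 5.39 TPM in Epi (log2 difference 1.52 ± 0.32, adjusted p = 0.000349). Col4a1, a collagen chain, was at 25.6 ± 0.562 TPM in ExE and 10.4 ± 1.05 TPM in Epi. PrE had 30.6 TPM of Lama1 and 124 TPM of Col4a1, and its part in these levels was not tested. The integrin gene Itga7 was higher in ExE, at 9.43 ± 1.07 TPM, against 3.64 ± 0.194 TPM in Epi, and Itga3 was lower, at 1.05 ± 0.171 TPM in ExE and 5.24 ± 0.433 TPM in Epi (adjusted p = 0.0137, but 0.0524 without ExE replicate 3). Fn1, which encodes fibronectin, fell to 1.56, 1.11 and 1.54 TPM in ExE, against 6.56, 5.64 and 6.596 TPM in Epi (log2 difference -1.60 ± 0.39, adjusted p = 0.00249). Cdh2, which encodes N-cadherin, was at 0.140 ± 0.0693 TPM in ExE and 1.34 ± 0.478 TPM in Epi, and its call was lost without any 1 of the libraries other than Epi replicate 2 (adjusted p between 0.0675 and 0.166) and under quantile and median-ratio scaling. A pseudocount of 0.1 TPM ended the calls of Lama1, Col4a1, Itga7 and Fn1, with adjusted p-values from 0.0556 for Fn1 to 0.222 for Itga7.

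Of 18 cell cycle genes 1 was lower and 0 higher in ExE by limma, with 4 lower and 0 higher at an unadjusted p under 0.05. Ccnd1, which encodes cyclin D1, fell to 6.81, 5.46 and 6.87 TPM in ExE, against 43.0, 35.4 and 40.2 TPM in Epi (log2 difference -2.46 ± 0.33, adjusted p = 1.24e-07). Ccnb1, a mitotic cyclin gene, was at 530.4 ± 16.4 TPM in ExE and 543 ± 6.44 TPM in Epi, with overlap. Among 13 immediate early and heat shock genes, which can respond to handling of cells, Junb was higher, at 61.1 ± 1.40 TPM in ExE and 29.5 ± 6.05 TPM in Epi (adjusted p = 0.0234, but 0.0588 without ExE replicate 1, 0.0673 without ExE replicate 2, 0.0702 without ExE replicate 3, 0.131 without Epi replicate 1 and 0.0628 without Epi replicate 3). Hspb1 and Egr1 were lower, at 453 ± 47.4 and 4.68 ± 0.932 TPM in ExE and at 1118 ± 59.1 and 12.3 ± 1.10 TPM in Epi. The call of Egr1 was lost without ExE replicate 2 (0.0539). Fos was at 73.7 ± 5.73 TPM in ExE and 57.6 ± 6.66 TPM in Epi and did not pass.

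Markers of maternal tissue were low. Of 5 uterine stroma genes tested, 1 was called, and this was Dcn, which encodes decorin, at 1.05, 0 and 0 TPM in ExE and 14.3, 11.6 and 11.5 TPM in Epi (log2 difference -3.40 ± 0.41, adjusted p = 7.88e-09). The sum of the stroma list was 1.40 to 2.79 TPM in ExE and 12.8 to 15.9 TPM in Epi. Of 7 blood genes tested, S100a8 and S100a9 were higher, at 4.10 ± 0.967 and 3.02 ± 0.600 TPM in ExE and at 0.747 ± 0.650 and 0.953 ± 0.132 TPM in Epi. The difference for S100a9 was under the minimum without ExE replicate 1 (0.93) or Epi replicate 2 (0.99). Both genes were also at 11.8 and 9.35 TPM in TGC. Hba-a2, whose reads may be split with the globin gene Hba-a1, was called lower, at 1.32 ± 0.665 TPM in ExE and 5.85 ± 2.06 TPM in Epi, with an adjusted p of 0.0532 without ExE replicate 1, 0.184 without ExE replicate 2, 0.144 without Epi replicate 2 and 0.104 without Epi replicate 3. The leukocyte gene Ptprc was listed at 0 in both tissues.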
